A study of Mus musculus with 4 samples.

Results

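The genes described here are 36 activity-regulated genes, the transcripts that neurons raise when they fire. They were taken from a list of symbols by function, and all 36 were measured, each by 1 probe set, among 19938 genes with a single symbol. They fall into 15 immediate early transcription factors, 9 other early regulators, 4 feedback phosphatases and 8 effectors.

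The RNA came from cortical neurons of newborn pups (postnatal day 0), cultured and read on Affymetrix mouse Gene ST arrays. The pups had a mixed SV129 x C57BL/6 strain background and were Syt1 deficient or wild type, and the labels do not tie either genotype to an array. Cultures received lentivirus at 5 days in vitro: control virus, virus carrying shRNAs against the calmodulin genes (knockdown), or the same shRNAs plus an shRNA-resistant wild-type calmodulin (rescue). Both test groups therefore carried the shRNAs. RNA was extracted at 14 to 15 days in vitro, the medium contained serum and the mitosis inhibitor Ara-C, and no source used here names the promoters of the constructs. The knockdown and the rescue had 2 samples each, 1 per repeat, and each value was the authors' ratio to the control array of the same repeat. A value of 0 on the log2 scale is equality with that control array. Ratios carry no levels, so the cell type of the label could not be checked against its defining markers, and fewer cells of a type could not be told apart from less RNA per cell.

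Calcium that enters a firing neuron binds calmodulin, which activates kinases and the phosphatase calcineurin. These pathways act on transcription factors already present, such as CREB, SRF and MEF2, which switch on immediate early genes within minutes without new protein synthesis. Many early genes encode transcription factors themselves, and these help to raise later effector genes whose products act at synapses or are secreted. The effector class used here mixes early and late effectors, which were not separated. Phosphatases of the Dusp family are induced along with them and switch MAP kinases off again.

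CREB binds the cAMP response element, TGACGTCA, or its half-site TGACG. RefSeq (GRCm38.p6) gave the 250 bases before the start of transcription for 25 of the 36 genes. Egr1, Egr3, Ier2, Crem, Sik1, Trib1, Dusp4, Arc, Nrn1, Vgf and Plat had no entry. The 6 upstream stretches below were picked as examples. Npas4, Nr4a1, Rgs2 and Pcsk1 were lower in the knockdown than in the rescue in both repeats. Fos and Dusp1 were lower in the first repeat and higher in the second. Other genes of either pattern had an entry too. Capitals mark every half-site on either strand and the full element. The stretches lie at chr19:4989972-4990221, minus strand for Npas4, chr15:101266596-101266845, plus strand for Nr4a1 and chr1:144004150-144004399, minus strand for Rgs2. Those of the other genes lie at chr13:75089607-75089856, plus strand for Pcsk1, chr12:85473640-85473889, plus strand for Fos and chr17:26508473-26508722, minus strand for Dusp1.
Npas4: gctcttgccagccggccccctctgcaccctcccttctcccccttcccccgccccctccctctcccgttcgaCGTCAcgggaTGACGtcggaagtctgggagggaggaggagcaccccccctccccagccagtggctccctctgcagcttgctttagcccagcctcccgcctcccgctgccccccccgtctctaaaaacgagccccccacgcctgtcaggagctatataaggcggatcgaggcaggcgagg
Nr4a1: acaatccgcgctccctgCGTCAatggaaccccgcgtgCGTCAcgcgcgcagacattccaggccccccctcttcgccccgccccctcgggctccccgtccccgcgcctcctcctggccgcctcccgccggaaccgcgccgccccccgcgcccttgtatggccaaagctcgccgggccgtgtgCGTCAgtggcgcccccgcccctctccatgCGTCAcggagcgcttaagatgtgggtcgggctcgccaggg
Rgs2: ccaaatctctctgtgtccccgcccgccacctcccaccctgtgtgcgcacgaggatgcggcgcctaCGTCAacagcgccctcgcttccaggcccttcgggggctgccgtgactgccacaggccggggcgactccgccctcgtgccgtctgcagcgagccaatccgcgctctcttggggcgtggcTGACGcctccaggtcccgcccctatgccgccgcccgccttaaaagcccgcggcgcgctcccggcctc
Pcsk1: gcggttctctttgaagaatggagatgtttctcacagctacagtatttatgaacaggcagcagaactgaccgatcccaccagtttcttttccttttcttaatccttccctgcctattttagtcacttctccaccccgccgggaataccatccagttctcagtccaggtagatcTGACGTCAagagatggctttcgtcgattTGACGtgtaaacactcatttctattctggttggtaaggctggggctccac
Fos: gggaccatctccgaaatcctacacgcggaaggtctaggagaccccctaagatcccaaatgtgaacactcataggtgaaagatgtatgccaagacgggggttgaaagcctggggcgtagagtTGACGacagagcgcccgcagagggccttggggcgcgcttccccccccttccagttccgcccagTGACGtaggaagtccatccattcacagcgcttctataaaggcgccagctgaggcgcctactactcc
Dusp1: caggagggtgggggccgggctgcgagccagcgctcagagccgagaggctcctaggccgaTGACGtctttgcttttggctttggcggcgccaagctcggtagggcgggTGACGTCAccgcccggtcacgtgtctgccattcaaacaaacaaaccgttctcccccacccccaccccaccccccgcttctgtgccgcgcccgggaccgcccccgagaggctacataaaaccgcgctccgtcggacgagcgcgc
All 6 hold the half-site, and the full element was found in those of Pcsk1 and Dusp1. Because the 6 were picked, that count does not describe the 36 genes. The stretch of Ptgs2, which is not shown, held neither the half-site nor the full element. The Fos stretch has half-sites that begin 129 and 66 bases before the start, Npas4 has them at 179 and 169, and Nr4a1 has 4, the nearest at 40. Over the 25 genes with an entry, 18 (72%) held the half-site in at least 1 upstream stretch, as did 19.8% of the 27025 genes of the RefSeq table. The full element, which contains the half-site, was found in Btg2, Dusp1, Pcsk1 and Scg2 (16%), against 1.77% of all genes. Genes with several starts have several stretches, 7 for Bdnf, and so more chances of a match. The CArG box, the site bound by SRF, was found in Dusp5 and Egr2 (8%, against 1.62% of all genes), and the AP-1 site TGANTCA in Bdnf alone (4%, against 7.82%). A match is a run of letters and not a measured binding site. Genes with the half-site stood on both sides of the difference between the repeats.

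The knockdown of calmodulin itself could be read in Calm2 and Calm3. Calm2 lay at -1.08 (knockdown repeat 1), -1.72 (knockdown repeat 2), -0.84 (rescue repeat 1) and -1.28 (rescue repeat 2) on the log2 scale. Calm3 lay at -1.32 and -2.40 (knockdown) and at -2.41 and -3.55 (rescue), higher in the knockdown by 1.09 and 1.15 within the repeats (limma adjusted p = 0.613; 0.0169 with the block). No source used here says whether these probe sets also detect the resistant calmodulin. In both groups the lower value of each gene was that of repeat 2.

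The first comparison asked how activity-regulated genes stood after calmodulin knockdown relative to control virus. The 2 knockdown samples gave opposite pictures. In repeat 1, 32 of the 36 lay below control (53% of all genes did), with a median of -0.63 on the log2 scale, against -0.02 over all genes. In repeat 2, 12 lay below control (47.6% of all genes), and the median was 0.21, against 0.02. In repeat 1, 18 were at least 1.5-fold below control (1.7% of all genes) and 0 at least 1.5-fold above (0.813%). In repeat 2, 1 was that far below (4.54% of all genes) and 5 that far above (3.91%). In all, 22 genes were below control in repeat 1 and above it in repeat 2 (21.9% of all genes), 10 were below in both (31.1%) and 2 above in both (30.5%). From repeat 1 to repeat 2, 34 of the 36 knockdown ratios were higher (53.3% of all genes), by a median of 0.90. The rescue ratios of the same repeats did not move that way: 14 of 36 were higher in repeat 2 (48.7% of all genes), with a median difference of -0.08. All 36 genes with their 4 values are drawn in the heat map.

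**Figure D1:**
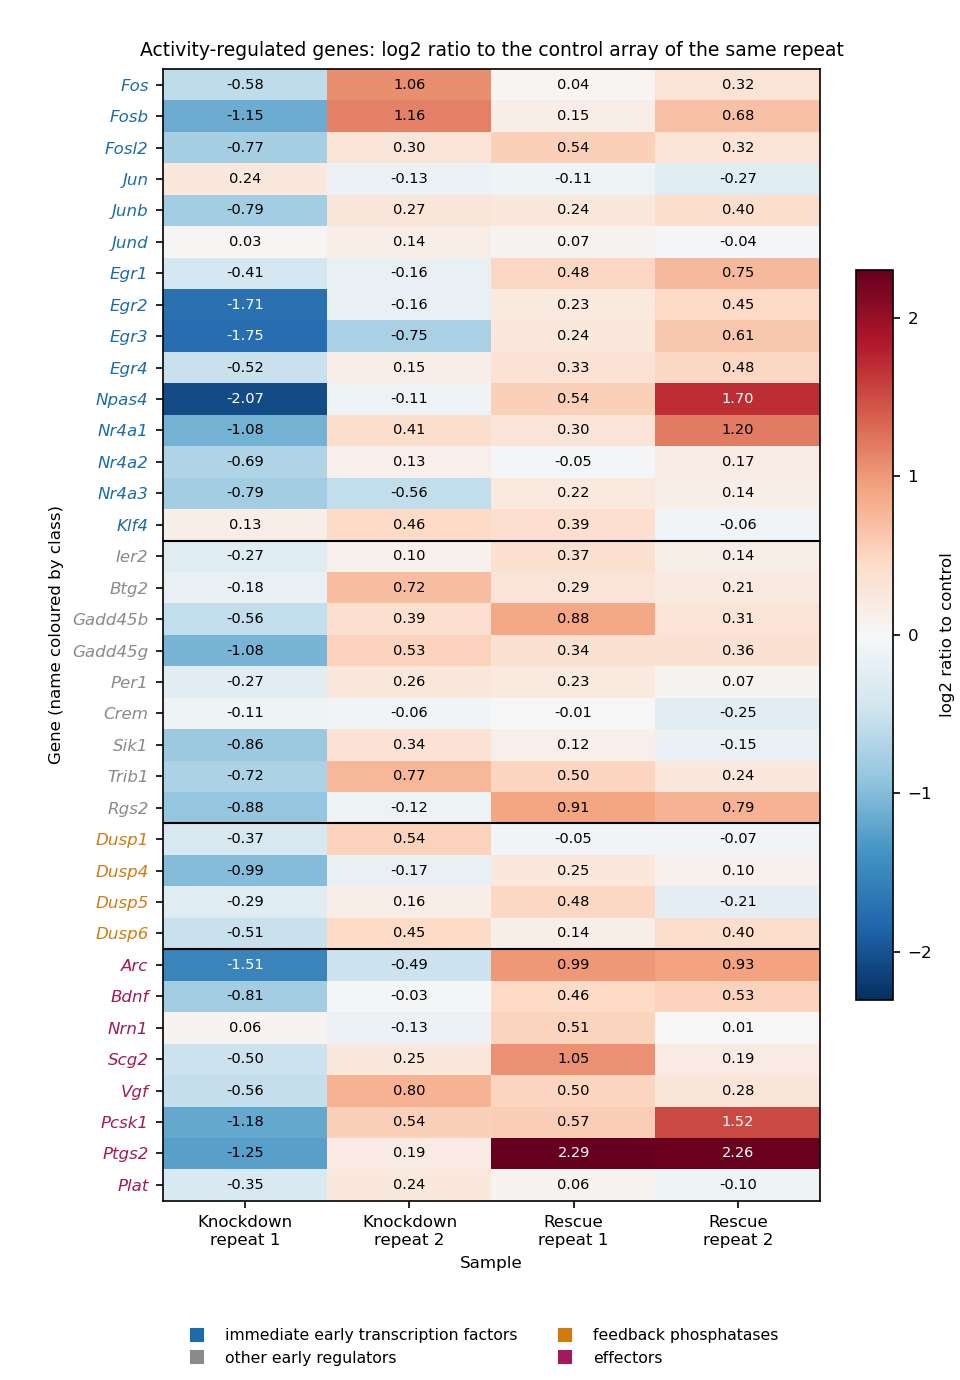
Heat map of the 36 activity-regulated genes (rows, names coloured by class and separated by black lines) in the 4 samples (columns), where colour and printed number give the log2 ratio to the control array of the same repeat, blue below and red above control. Of the 36 genes, 32 are below control in knockdown repeat 1 and 12 in knockdown repeat 2, while 27 are above control in both rescue repeats.

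In limma fitted over all genes, 0 of the 36 passed an adjusted p of 0.05 for knockdown against control, where 0.171% of all genes were called lower and 0.135% higher. At an unadjusted p under 0.05 there were 8 (16% of all genes). When each repeat was fitted as a block, Egr2, Egr3, Npas4, Nr4a3 and Arc passed as lower (5 of 36, against 3.48% of all genes) and 0 as higher (1.91%). That blocked fit takes out the spread of the control arrays between repeats, so it understates the error of a comparison with control. The direction of the calls depended on which knockdown sample was used. A fit with 1 knockdown sample takes its residual spread from the rescue samples alone, so its calls do not measure how the knockdown varies. Without knockdown replicate 2, 12 of the 36 passed as lower (0.396% of all genes) and 0 as higher (0.145%). Without knockdown replicate 1, Egr3 passed as lower (1 of 36, against 3.48% of all genes), and Fos, Fosb, Btg2, Trib1 and Vgf passed as higher (5 of 36, against 2.9%).

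Among the immediate early transcription factors, the zinc finger proteins Egr2 and Egr3 and the neuron-specific factor Npas4 had the lowest means in the knockdown. Npas4, which is induced by calcium rather than by growth factors, was at -2.07 in knockdown repeat 1 and -0.11 in repeat 2. Egr3 was at -1.75 and -0.75, the gene among the 36 that stood at least 1.5-fold below control in both repeats (0.757% of all genes did). Its mean was -1.25 (SE 0.22, n = 2, limma adjusted p = 0.0668; 0.00327 with the block). Egr2 was at -1.71 and -0.16. Egr1, the most widely used marker of neuronal activation in this family, was at -0.41 and -0.16, and Egr4 at -0.52 and 0.15. Egr1, Egr2 and Egr3 thus lay below control in both repeats, Egr1 and Egr2 by little in repeat 2.

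The AP-1 subunits, which pair as Fos and Jun proteins, split by repeat. Fos was at -0.58 in knockdown repeat 1 and 1.06 in repeat 2, and Fosb at -1.15 and 1.16. Fosl2 (-0.77 and 0.30) and Junb (-0.79 and 0.27) turned in the same way but ended nearer to control. Jun was at 0.24 and -0.13, and Jund at 0.03 and 0.14, so the subunits Jun and Jund did not share the low values of repeat 1. The orphan nuclear receptors were at -1.08 and 0.41 for Nr4a1, at -0.69 and 0.13 for Nr4a2 and at -0.79 and -0.56 for Nr4a3. Nr4a3 was the one of the 3 that stayed below control in both repeats. Klf4, a Krüppel-like factor, was at 0.13 and 0.46.

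The other early regulators were below control in 9 of 9 cases in repeat 1 (median -0.56) and in 2 of 9 in repeat 2 (median 0.34). Those 2 were Rgs2, which speeds up GTP hydrolysis by G proteins and so shortens their signals (-0.88 and -0.12), and Crem, a CREB-related gene that also encodes the repressor ICER (-0.11 and -0.06). The growth arrest and DNA damage genes Gadd45b (-0.56 and 0.39) and Gadd45g (-1.08 and 0.53), the kinase Sik1, which keeps CREB coactivators out of the nucleus (-0.86 and 0.34), and the pseudokinase Trib1 (-0.72 and 0.77) crossed from below to above control. Btg2, an antiproliferative coregulator, was at -0.18 and 0.72, the clock gene Per1 at -0.27 and 0.26, and Ier2 at -0.27 and 0.10.

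Of the feedback phosphatases, Dusp1, Dusp5 and Dusp6 were below control in repeat 1 (-0.37, -0.29 and -0.51) and above it in repeat 2 (0.54, 0.16 and 0.45). Dusp4 was below in both, at -0.99 and -0.17. Dusp6 acts on ERK in the cytoplasm, while the other 3 are nuclear enzymes. The class median was -0.44 in repeat 1 and 0.31 in repeat 2.

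Effectors were below control in 7 of 8 cases in knockdown repeat 1 (median -0.68) and in 3 of 8 in repeat 2 (median 0.21). Arc, a capsid-like protein that drives AMPA receptor endocytosis, was at -1.51 and -0.49 (limma adjusted p = 0.0928; 0.0197 with the block). Bdnf, the neurotrophin, was at -0.81 and -0.03. Ptgs2, the inducible cyclooxygenase, was at -1.25 and 0.19, and Pcsk1, a convertase that cuts prohormones, at -1.18 and 0.54. The secretory granule proteins Scg2 (-0.50 and 0.25) and Vgf (-0.56 and 0.80) and the tissue plasminogen activator Plat (-0.35 and 0.24) also crossed. Nrn1, a membrane-anchored protein that promotes neurite growth, stayed near control at 0.06 and -0.13.

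**Figure D2:**
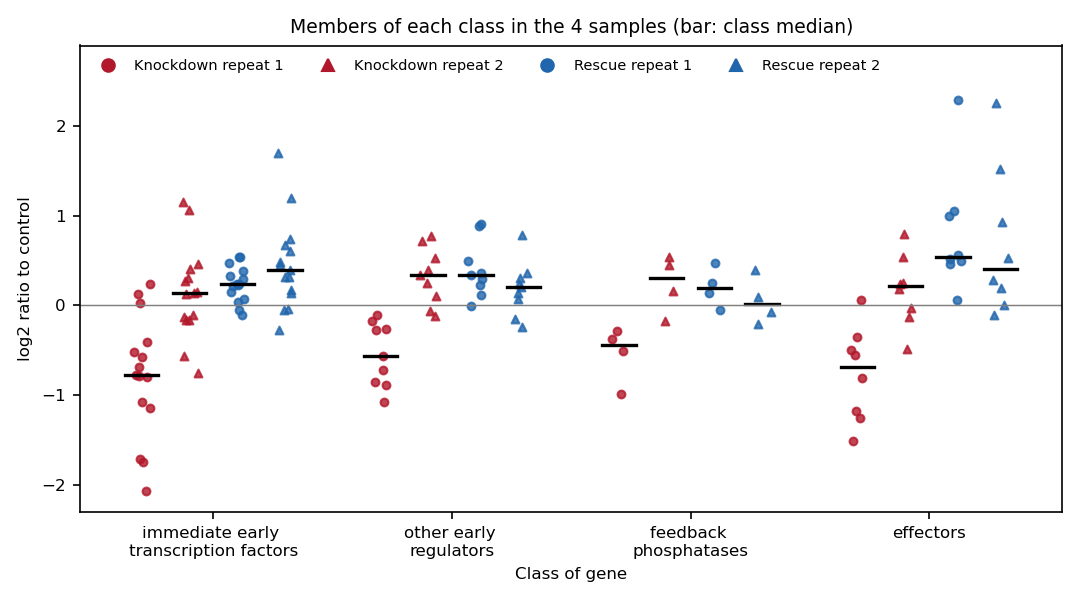
Log2 ratio to control (vertical axis) of every gene in its class (horizontal axis), red for knockdown and blue for rescue, circles for repeat 1 and triangles for repeat 2, with a black bar at each class median. Each of the 4 classes has a median below 0 in knockdown repeat 1, from -0.77 to -0.44, and above 0 in the other 3 samples.

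The comparison of rescue with control asked where these genes stood when the cultures also carried the resistant calmodulin. Of the 36, 27 lay above control in both rescue repeats (24.9% of all genes) and 3 below in both (29.8%). Their medians were 0.31 and 0.29, against -0.01 in each repeat over all genes. Below control were 4 of 36 in repeat 1 (51.9% of all genes) and 8 in repeat 2 (52.9%), 0 of them by 1.5-fold in either (1.11% and 1.17%). By 1.5-fold or more, 5 were above in repeat 1 (1.16% of all genes) and 9 in repeat 2 (0.978%). In both repeats Rgs2, Arc and Ptgs2 were that far above (3 of 36, against 0.16% of all genes). Ptgs2 was highest, at 2.29 and 2.26 (mean 2.28, SE 0.28, n = 2, limma adjusted p = 0.328; 0.00898 with the block), that is 4.91-fold and 4.80-fold above control. Arc was at 0.99 and 0.93, and Rgs2 at 0.91 and 0.79. For these 3 the repeats lay close together.

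Other genes that stood above control in the rescue differed between the repeats. Npas4 was at 0.54 and 1.70 and Pcsk1 at 0.57 and 1.52, both higher in repeat 2, as was Nr4a1, by 0.91 on the log2 scale. Scg2 went the other way, at 1.05 and 0.19, as did Gadd45b at 0.88 and 0.31. Egr1 was at 0.48 and 0.75, Egr3 at 0.24 and 0.61, and Bdnf at 0.46 and 0.53. Fos was at 0.04 and 0.32 and Fosb at 0.15 and 0.68. Below control in both repeats were Jun (-0.11 and -0.27), Crem (-0.01 and -0.25) and, by a small margin, Dusp1 (-0.05 and -0.07).

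In limma, 0 of the 36 passed for rescue against control, and 0% of all genes were called in either direction. At an unadjusted p under 0.05 there were 10 of the 36 (7.44% of all genes). With the block, Npas4, Pcsk1 and Ptgs2 passed as higher (3 of 36, against 0.0602% of all genes) and 0 as lower (0.0652%), with the same limit on the error as above. In a fit of the rescue samples alone, which is also the fit with either knockdown replicate left out, 7 passed as higher (0.361% of all genes) and 0 as lower (0.522%). The 7 were Arc, Egr1, Npas4, Nr4a1, Pcsk1, Ptgs2 and Rgs2.

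The comparison of knockdown with rescue within a repeat asked which genes differed with and without the resistant calmodulin. In that difference the shared control array cancels. In repeat 1, 35 of the 36 genes were lower in the knockdown (52% of all genes), with a median difference of -1.02 on the log2 scale, against -0.01 over all genes. In repeat 2, 18 were lower (42.3% of all genes) and the median was 0.02, against 0.05. The 18 genes lower in repeat 2 were lower in repeat 1 as well, so 18 of 36 were lower in both (24.3% of all genes). Another 17 were lower in repeat 1 and higher in repeat 2 (27.7% of all genes), and Jun was higher in both (30.1%).

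Lower in both repeats were 10 of 15 immediate early transcription factors and 5 of 8 effectors (24.3% of all genes). Among the other early regulators it was 2 of 9 and among the phosphatases 1 of 4, near that share. Because 35 of the 36 were lower in repeat 1, these counts equal those of repeat 2 alone, where 42.3% of all genes were lower. Transcription factors and effectors lay above the share of repeat 2, and other early regulators and phosphatases below it. At least 1.5-fold lower in the knockdown were 27 of 36 in repeat 1 (2.52% of all genes) and 10 in repeat 2 (4.99%), and 0 were that much higher in repeat 1 (1.76%). Lower by that much in both were 10 of the 36 (0.958% of all genes): Egr1, Egr2, Egr3, Npas4, Nr4a1, Nr4a3, Rgs2, Arc, Pcsk1 and Ptgs2. At least that much higher in both were 0 of 36 (0.522%). At 2-fold, 4 were lower in both (0.201% of all genes) and 0 higher (0.105%). At 1.25-fold, 12 were lower in both (3.6% of all genes) and 0 higher (2.94%). Bdnf lay just outside the 1.5-fold limit in repeat 2, at -1.27 and -0.55, and Egr2 just inside it, at -1.94 and -0.62. The difference between classes was not tested.

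**Figure D3:**
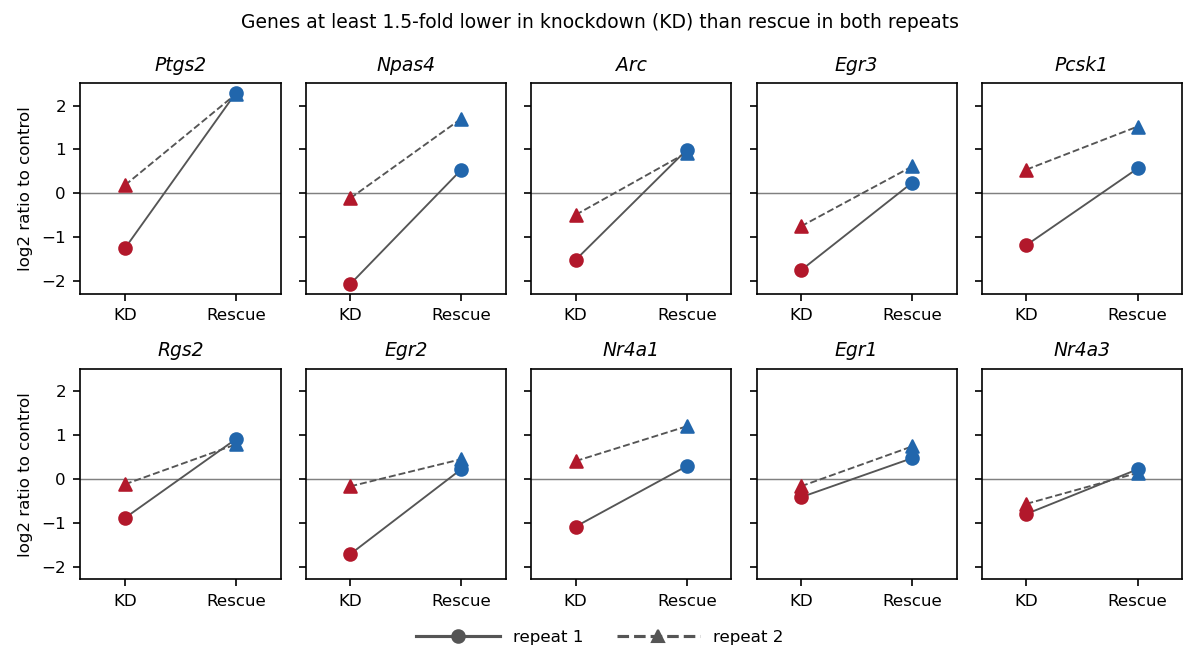
Log2 ratio to control (vertical axis) in the knockdown (KD, red) and the rescue (blue) for the 10 genes at least 1.5-fold lower in the knockdown in both repeats, ordered by mean difference, with lines joining the samples of a repeat (circles and solid lines for repeat 1, triangles and dashed lines for repeat 2). Every line rises from knockdown to rescue, which is how the genes were picked, and in repeat 2 the knockdown point sits higher than in repeat 1 for all 10.

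Ptgs2 differed most. It was 11.7-fold lower in the knockdown than in the rescue in repeat 1 and 4.22-fold lower in repeat 2, the lowest of all 19938 genes in repeat 1 and ranked 5 from the bottom in repeat 2. Its mean difference was -2.81 on the log2 scale (SE 0.39, n = 2 per group, limma adjusted p = 0.0748; SE 0.29 and adjusted p = 0.00757 with the block). Its rescue values of 2.29 and 2.26 lay farther from control than the knockdown values of -1.25 and 0.19.

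Npas4 was 6.10-fold lower in repeat 1 and 3.52-fold lower in repeat 2, at ranks 4 and 9 from the bottom. Its differences of -2.61 and -1.82 lay closer together than its knockdown ratios to control, -2.07 and -0.11. Its mean difference was -2.21 (adjusted p = 0.360; 0.00570 with the block). Arc was 5.69-fold and 2.67-fold lower, at ranks 5 and 56, with a mean of -1.96 (adjusted p = 0.107; 0.0131 with the block). Egr3 was 3.98-fold and 2.57-fold lower, at ranks 18 and 66 (mean -1.68, adjusted p = 0.173; 0.00836 with the block). In all 3 the knockdown samples lay below both rescue samples.

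A second tier differed by less. Rgs2 was at -1.80 and -0.91 in the 2 repeats (adjusted p = 0.176; 0.0366 with the block), Pcsk1 at -1.74 and -0.98 (0.616; 0.0265) and Nr4a1 at -1.38 and -0.79 (0.707; 0.0407). Egr1 had nearly the same difference in both repeats, -0.89 and -0.91 (0.222; 0.0407), 1.85-fold and 1.88-fold lower in the knockdown. Nr4a3, at -1.02 and -0.70, and Egr2 missed the threshold under the block too (limma adjusted p = 0.0586 and 0.0896), as did Bdnf (adjusted p = 0.0896). For Pcsk1 the knockdown value of repeat 2 (0.54) almost reached the rescue value of repeat 1 (0.57), and for Nr4a1 it passed it (0.41 against 0.30). The 2 groups of Nr4a1 therefore overlapped when the repeat was ignored.

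In the unblocked fit 0 of the 36 passed for knockdown against rescue, where 0.0301% of all genes were called lower and 0.0401% higher. At an unadjusted p under 0.05 there were 13 (6.82% of all genes). In the blocked fit, which compares samples within a repeat, 8 of the 36 passed as lower (0.431% of all genes) and 0 as higher (0.186%). The 8 were Egr1, Egr3, Npas4, Nr4a1, Rgs2, Arc, Pcsk1 and Ptgs2. Ignoring the repeat, 14 of the 36 had both knockdown values below both rescue values (15.1% of all genes) and 0 had both above (16.5%). The blocked fit had 1 residual degree of freedom per gene and leaned on the spread shared over all genes.

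The number of genes called changed with the knockdown sample left out. In these fits the residual spread again came from the rescue samples alone. Without knockdown replicate 2, 17 of the 36 passed as lower than the rescue in the fit without a block (0.562% of all genes) and 0 as higher (0.176%). Without knockdown replicate 1, Arc, Egr3, Npas4, Ptgs2 and Rgs2 passed as lower (5 of 36, against 1.15% of all genes) and 0 as higher (0.602%). With a single knockdown sample, which meets this condition more easily, 31 of the 36 lay below both rescue samples without knockdown replicate 2 (32% of all genes) and 15 without knockdown replicate 1 (30.2%). All genes called without knockdown replicate 1 were also called without knockdown replicate 2. Both fits rest on the same rescue samples, so their calls are not independent.

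The 17 genes that turned between the repeats include Fos, an AP-1 subunit, and the phosphatase Dusp1. Fos was -0.62 in repeat 1 and 0.74 in repeat 2 as a difference between knockdown and rescue on the log2 scale, and Dusp1 was -0.32 and 0.61. These 2 were at least 1.5-fold higher in the knockdown in repeat 2 (2 of 36, against 3.5% of all genes). Fosb (-1.29 and 0.48), Trib1 (-1.22 and 0.53), Vgf (-1.06 and 0.52), Sik1 (-0.98 and 0.49), Btg2 (-0.47 and 0.51) and Klf4 (-0.26 and 0.52) followed the same course with smaller values in repeat 2. Scg2, Gadd45b and Gadd45g had larger differences in repeat 1 (-1.55, -1.44 and -1.42) than the median gene and small ones in repeat 2 (0.06, 0.09 and 0.17). Dusp6 was at -0.65 and 0.05. Dusp5 was at -0.76 and 0.37, Per1 at -0.49 and 0.18, Plat at -0.41 and 0.35, Crem at -0.10 and 0.18, and Jund at -0.04 and 0.18. None of the 17 passed with the block (adjusted p from 0.409 to 0.994).

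The order of the genes was partly shared by the repeats, also where the sign was not. Across the 36 genes, which are not independent replicates, the within-repeat differences correlated with a Pearson r of 0.78 and a Spearman rho of 0.64. Over all 19938 genes these were 0.31 and 0.20. The differences of the 2 repeats share no array. Without Ptgs2 and Npas4, the genes farthest from the median in repeat 1, r was 0.65 over 34 genes. By class it was 0.74 in the 15 transcription factors, 0.49 in the 9 other early regulators, 0.89 in the 4 phosphatases and 0.89 in the 8 effectors. The scatter of the repeats also holds exceptions to this order: Scg2, Gadd45b and Gadd45g had larger deficits in repeat 1 than Nr4a1 or Egr1 and none in repeat 2.

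**Figure D4:**
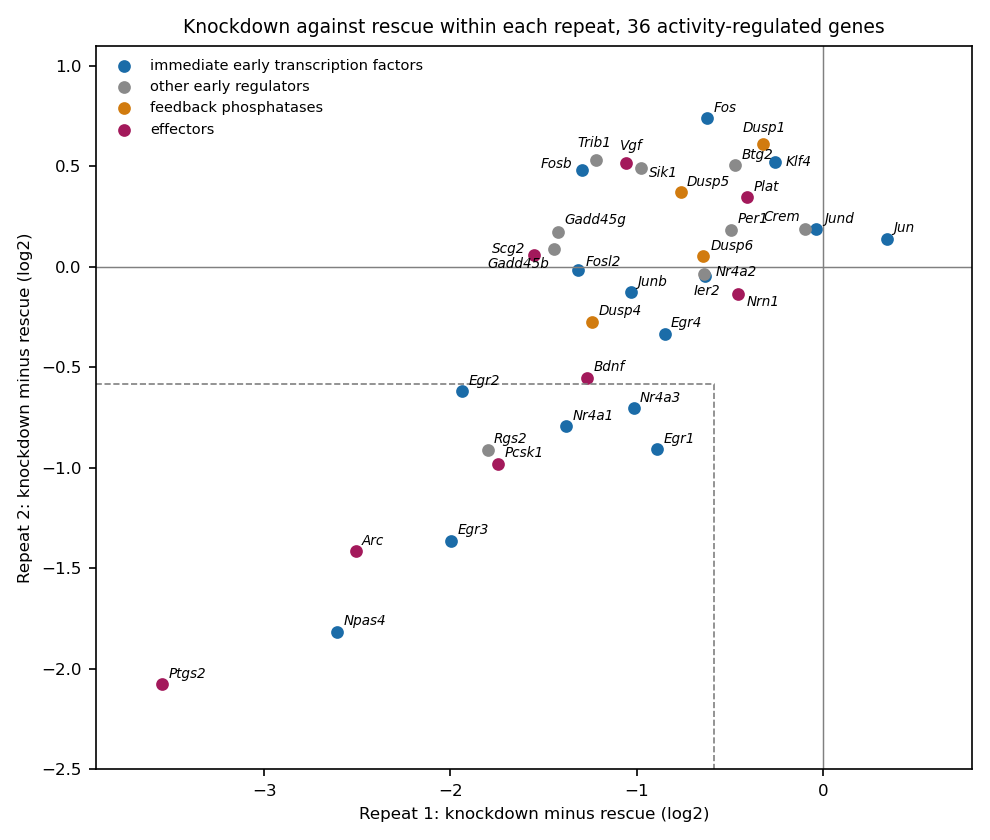
Knockdown minus rescue on the log2 scale in repeat 1 (horizontal axis) and repeat 2 (vertical axis), 1 point per gene, coloured by class, with grey lines at 0 and dashed lines at a 1.5-fold deficit in both repeats. Of the 36 points 35 lie left of 0 but 18 below 0, and 10 fall inside the dashed corner, led by Ptgs2, Npas4, Arc and Egr3.

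Genes upstream of this response were read from lists taken from general knowledge of the pathway. Of 12 calmodulin kinase and calcineurin genes measured of 13 listed, 0 passed without the block in any comparison. With the block 4 were lower and 1 higher for knockdown against control (3.48% and 1.91% of all genes). For knockdown against rescue it was 0 in either direction (0.431% and 0.186%). Their median was -0.24 and -0.44 in the 2 knockdown repeats and -0.06 and -0.02 in the rescue, so this list was lowest in repeat 2, where the activity-regulated genes were not. Camk4, a nuclear kinase that phosphorylates CREB, was at -0.44 and -0.98 in the knockdown (limma adjusted p = 0.0912; 0.0219 with the block). Camk2g lay above control in the knockdown, at 0.46 and 0.62 (adjusted p = 0.103; 0.0275 with the block).

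Of 17 transcription factors and coactivators of the CREB, SRF, MEF2 and NFAT families, 15 were measured and 0 passed without the block. With it 2 were lower and 1 higher in the knockdown against control (3.48% and 1.91% of all genes). Mef2c, at -0.62 and -0.89 in the knockdown against -0.16 and 0.29 in the rescue, had the largest difference (limma adjusted p = 0.342; 0.117 with the block). Of 10 MAP kinase pathway genes measured of 17, 0 passed without the block and 1, Mapk8, was lower against control with it (-0.41 and -0.60, adjusted p = 0.118; 0.0329 with the block). Calcium entry genes, 6 measured of 8, were all below control in both knockdown repeats, with medians of -0.31 and -0.61. Among them Grin2a, an NMDA receptor subunit, was at -0.61 and -1.17 (adjusted p = 0.0618; 0.0114 with the block).

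A further 24 activity-regulated genes outside the 36, of 25 listed, gave a similar picture by repeat. In the within-repeat difference 19 of 24 were lower in the knockdown in repeat 1 (52% of all genes), with a median of -0.56. In repeat 2 it was 11 of 24, near the share of all genes (42.3%), with a median of 0.02. Homer1, a postsynaptic scaffold with an activity-induced short form, was the only one of the 24 to pass without the block. Its knockdown values were -1.14 and -1.05 and its rescue values 0.31 and 0.26 (difference -1.38, SE 0.16, n = 2 per group, limma adjusted p = 0.0499; 0.00836 with the block). Against control its mean was -1.09 (limma adjusted p = 0.0140). That call was lost after quantile normalization (limma adjusted p = 0.0575) and with only the knockdown samples fitted (0.0608). The call against the rescue was at the threshold and was lost when columns were centred on their medians (limma adjusted p = 0.0504), with robust eBayes (0.0501), with every probe set tested (0.0605), after quantile normalization (0.123) and without either rescue replicate (0.389 and 0.412). Inhba, an activin subunit, had knockdown values of -1.07 and -0.12 and rescue values of 1.93 and 0.59 (limma adjusted p = 0.306; 0.110 with the block). Nptx2, a secreted pentraxin, was at -1.34 and 0.29 against 1.14 and 0.76 (adjusted p = 0.456; 0.143 with the block).

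Markers of cell types moved with the groups or with the repeats. Medians of 10 neuronal markers were near control in all samples, from -0.13 to 0.02, but single genes spread widely. In the knockdown they ranged from -0.54 to 0.88 in repeat 1 and from -0.79 to 1.58 in repeat 2. In the rescue the ranges were -0.27 to 0.98 and -0.65 to 0.34. Astrocyte markers lay higher in the knockdown than in the rescue in 10 of 10 cases in both repeats (30.1% of all genes). Their medians were 0.32 and 0.34 in the knockdown against -0.08 and -0.11 in the rescue. Fibroblast and mural cell markers lay higher in knockdown repeat 2 (median 0.49 over 8 genes, against -0.02 in repeat 1) and at -0.15 and -0.19 in the rescue. Endothelial markers had a median of 0.27 in knockdown repeat 2 and 0.03 in repeat 1, and oligodendrocyte lineage markers 0.18 and 0.03. Cortical excitatory neuron markers were lower in knockdown repeat 2 (median -0.68) than in repeat 1 (-0.28), and at -0.10 and -0.18 in the rescue. Interneuron markers had medians of 0.15 and -0.57 (knockdown) against -0.30 and -0.56 (rescue), and microglia markers -0.40 and -0.01 against -0.41 and -0.15. Of the 8 marker lists 0 genes passed without the block for knockdown against rescue. With the block 1 excitatory neuron marker passed as lower in that comparison (0.431% of all genes). Against control, the block called 3 astrocyte markers higher in the knockdown (1.91% of all genes). It called 3 excitatory neuron and 3 interneuron markers lower (3.48% of all genes), and of the neuronal markers 2 higher and 1 lower. For rescue against control it called 1 interneuron marker lower (0.0652% of all genes). Across these lists, the part of these markers in the values of the activity-regulated genes was not tested.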

How the data were processed

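Expression was measured in 2 knockdown and 2 rescue samples. Each deposited value is a linear ratio of a test array to the control array of its repeat, made by the authors, per the labels. How arrays were background-corrected, summarized and normalized is not given in the sources, and the 2 control arrays were not analysed here. Of 35399 probe sets, 21789 had exactly 1 gene symbol in the platform annotation, 1621 several, and 11989 were not listed. Ratios were put on the log2 scale without centring and averaged per symbol (19938 genes). limma 3.58.1 in R 4.3.3 (lmFit, eBayes, two-sided) fitted a coefficient per group over all 4 samples (2 residual and 6.11 prior degrees of freedom), with Benjamini-Hochberg adjustment over all genes and a threshold of 0.05. Same-numbered samples share a day and a control array per the labels, so the numbers pair them, and a second fit took the repeat as a block. Deviations of same-numbered samples from their group means had a correlation of 0.305 across genes. The shared control array raises that correlation by itself, so it does not show that cultures were paired. Scripts were tested on simulated data. Nothing says that repeats were separate cultures. The p-values thus reflect only how these samples vary, and that variation may be technical.

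All 36 genes and the calmodulin genes were named by rule, and of each other list the genes past the threshold and the 3 with the largest difference between knockdown and rescue, of which some are given. The genes and lists were chosen with earlier results of these data known. The number of arrays limits the precision, and dim probe sets could not be told from bright ones. Alternatives were quantile normalization, median centring, robust eBayes, every probe set tested, fewer samples and the block.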

Additional observations from a re-analysis of the deposited data

How the results depend on the processing

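Depth and brightness are unknown for ratios, so no limit from signal can be given, and the small number of samples limits every count. With the repeat as a block, genes called numbered 1074 for knockdown against control (61 without it), 25 for rescue against control (0) and 123 for knockdown against rescue (14), and of the 36 genes 5, 3 and 8 were called (0 each). Quantile normalization gave 20, 1 and 2 genes. Median centring, robust eBayes and every probe set tested each gave 4 genes for knockdown against rescue. These 4 settings called 0 of the 36 in every comparison. With only the samples of the group compared, genes called numbered 12 for the knockdown and 176 for the rescue, and of the 36 genes 0 and 7. Leaving out 1 replicate at a time, genes called ranged from 12 to 1272 for knockdown against control (12 without either rescue replicate), 0 to 176 for rescue against control and 0 to 350 for knockdown against rescue, where it was 350 without knockdown replicate 1 and 147 without knockdown replicate 2. Of the 36, those called ranged from 0 to 12, from 0 to 7 and from 0 to 17, and those without overlap from 15 to 31. The lone sample of an arm was assumed to vary like the other group. Fosb, at 0.01 against control, ranged from -1.15 without knockdown replicate 2 (limma adjusted p = 0.00538) to 1.16 without knockdown replicate 1 (0.00125). Genes of the 36 at least 1.5-fold lower in both repeats numbered 10, or 11 after quantile normalization, and 4 at 2-fold and 12 at 1.25-fold, limits added after seeing the data. The count lower in both repeats (18) was 22 after quantile normalization, and neither count exists with 1 replicate left out. Why these counts moved was not tested.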
